A study of Rattus norvegicus with 6 samples.

Results

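Cd200 and 7 other genes for immune-inhibitory ligands (Cd47, Cd274, Pdcd1lg2, Cd276, Vsir, Pvr and Nectin2) were followed in rat vascular smooth muscle cells. These cells lie within vessel walls and contract them. The ligand genes are 8 of the 30945 genes in the count files and were found there by gene symbol. The group was put together with the difference of Cd200 between siRNA_ANK and negative control libraries already known, so the values of the 8 genes in this comparison are given as a description, without a test. RNA was sequenced from 3 libraries labelled siRNA_ANK and 3 labelled Negative_control, all from primary cells. The labels give siRNA_ANK and Negative_control as the genotypes, and the series title speaks of ANK deficiency. The siRNA sequence, its dose, the time after transfection and the animals behind each culture were not stated in the labels. Replicates may therefore be technical, and a p-value covers no more than the spread among these libraries.

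These ligands are surface proteins by which tissue cells restrain leukocytes. CD200 binds the receptor CD200R1 on macrophages and other myeloid cells and dampens their activation, and CD47 binds SIRP-alpha on phagocytes and holds back engulfment. Cd274 and Pdcd1lg2 encode the ligands PD-L1 and PD-L2 of the T cell receptor PD-1, and Cd276 and Vsir encode the related molecules B7-H3 and VISTA. Pvr and Nectin2 encode adhesion proteins that bind the inhibitory receptor TIGIT and the activating receptor CD226, and the PVR protein also binds CD96. CD200 is found on neurons, endothelium and some lymphocytes, and also on smooth muscle.

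The genes lie on 4 chromosomes (mRatBN7.2, as the files give them). Cd200 (ENSRNOG00000002141, chr11:55410196-55501648, plus strand) and Cd47 (chr11:50906177-50969425, minus strand) share chromosome 11 with 4441 kb between them. Cd274 (chr1:227116649-227134450) and Pdcd1lg2 (chr1:227158941-227223938) are neighbours on the plus strand, 24.5 kb apart. Nectin2 (chr1:79372119-79407360) and Pvr (chr1:79546879-79576715) lie 140 kb apart on the minus strand of the same chromosome. Cd276 is on chromosome 8 (58937751 to 58968380, minus strand) and Vsir on chromosome 20 (28281596 to 28303878, plus strand).

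The 250 bases before the RefSeq transcription start (build GRCr8) are shown for the ligand genes with the highest and the lowest log2 fold change. CpG dinucleotides are in capitals. The RefSeq starts were not compared with the starts of the mRatBN7.2 genes that were counted.
Cd200 (chr11:68916065-68916314, plus strand): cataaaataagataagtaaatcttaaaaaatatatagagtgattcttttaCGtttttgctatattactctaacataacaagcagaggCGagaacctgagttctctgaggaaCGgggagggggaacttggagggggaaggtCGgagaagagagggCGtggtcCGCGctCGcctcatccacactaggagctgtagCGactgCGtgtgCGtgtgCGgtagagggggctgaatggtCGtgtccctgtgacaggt
Cd274 (chr1:236529982-236530231, plus strand): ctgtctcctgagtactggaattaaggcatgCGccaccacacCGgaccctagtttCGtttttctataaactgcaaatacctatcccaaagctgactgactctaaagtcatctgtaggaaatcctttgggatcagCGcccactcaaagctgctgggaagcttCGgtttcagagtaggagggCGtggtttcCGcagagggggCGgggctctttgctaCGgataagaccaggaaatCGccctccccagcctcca
The Cd200 window holds 13 CpG and is 49.2% G and C, and the Cd274 window holds 10 CpG and is 52.8% G and C. The median over 33465 RefSeq promoter windows of this length was 5 CpG and 51.2%, and 29.4% of them had at least 13 CpG. Of the 8 ligand genes, 7 had a window in the table, and their CpG number ran up to 32, in Cd47. Motifs were searched on both strands of these windows: TTCNNNGAA (STAT), TGANTCA (AP-1), CACGTG (E-box), TGACGTCA (CRE), GGGCGG (GC box), and the ISRE, kappa-B and CArG consensus. GGGCGG was found in Cd47, Cd274, Cd276 and Vsir (30.5% of all windows hold it), and these letters were not in the Cd200 window. None of the other 7 motifs was in any of the 7 windows. In all windows they were found in 1.5% (CArG) to 7.67% (STAT).

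The libraries held 15641259 to 17441548 counts. The targeted gene, Ankh, which encodes a membrane protein needed for pyrophosphate release, was lower in each siRNA_ANK library, with 84.9, 76.7 and 120 CPM (counts relative to the TMM-scaled library size) against 338, 351 and 367 CPM in negative controls. Of 13016 genes tested with edgeR's quasi-likelihood test, 40.1% were called at an adjusted p under 0.05, 19.9% higher and 20.2% lower in siRNA_ANK. On the first principal component (70.6% of the variance) siRNA_ANK replicate 3 and negative control replicate 2 lay nearest to the other group. Of 8 smooth muscle markers, 7 were called higher in siRNA_ANK (Acta2 log2 fold change 1.10 ± 0.16 SE), with sums of 5949 to 7027 CPM in siRNA_ANK and 3127 to 4281 CPM in negative controls. Of 12 leukocyte and macrophage markers, 6 had no count in any library (Ptprc, Adgre1, Itgam, Cd3e, Cd3d and Cd79b), and their sums were 11.3 to 15.1 CPM in siRNA_ANK and 24.8 to 28.1 CPM in controls, nearly all of it Cd14 (log2 fold change -1.06 ± 0.11). Of 8 endothelial markers, Cdh5, Kdr, Tie1 and Emcn had no count, and the sums were 6.47 to 8.29 CPM in siRNA_ANK and 10.8 to 14.3 CPM in controls, most of it Egfl7 (5.99 ± 0.625 CPM in siRNA_ANK and 11.3 ± 1.98 CPM in controls). Tek, at a low level, had a log2 fold change of -0.01 ± 0.37, and the others were too low to test. The 8 neural and glial markers summed to 117 to 139 CPM in siRNA_ANK and 192 to 212 CPM in controls, most of it Ncam1, with Elavl3 at 0. The 7 fibroblast markers summed to 685 to 747 CPM in siRNA_ANK and 1049 to 1123 CPM in controls, most of it Col15a1, while 5 of them, Lum among them, were called higher. In these bulk samples fewer cells of a type and less RNA per cell cannot be told apart.

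Cd200 was several times higher in siRNA_ANK cells. It measured 498, 495 and 465 CPM in siRNA_ANK, against 99.8, 121 and 98.9 CPM in negative controls. The groups were far apart, with the lowest siRNA_ANK library well above the highest control. The means were 486 ± 18.1 and 107 ± 12.7 CPM (SD, n = 3 each), a 4.56-fold difference and a log2 fold change of 2.19 ± 0.08 (SE). These values rest on 23909 counts over the siRNA_ANK libraries and 5463 over the controls. By log2 fold change, Cd200 was 106th from the top of the 13016 genes tested, and 0.807% of genes had a larger one. The 2 libraries nearest to the other group also had the least extreme Cd200 values of their groups. Without both, the log2 fold change was 2.32 ± 0.05, and a larger value follows from leaving out the least extreme libraries. The summed levels of the endothelial, neural, leukocyte and fibroblast markers were lower in siRNA_ANK, where Cd200 was higher, but each of these sums was mostly 1 gene (Egfl7, Ncam1, Cd14 and Col15a1). That of the smooth muscle markers was higher. Their part in the Cd200 difference was not tested.

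Cd274 was lower in siRNA_ANK cells, at a low level in both groups. It had 25, 19 and 15 counts (1.5, 1.14 and 0.950 CPM) in siRNA_ANK and 59, 68 and 44 counts (3.32, 3.92 and 2.75 CPM) in negative controls. The groups did not overlap. Its mean was 1.20 ± 0.279 CPM in siRNA_ANK and 3.33 ± 0.583 CPM in controls, 2.78-fold less, and the log2 fold change was -1.47 ± 0.27. Pdcd1lg2, its neighbour with the same receptor, had no count in any library. A count of 0 allows up to 3 counts, which is 0.180 to 0.190 CPM in a siRNA_ANK library and 0.169 to 0.187 CPM in a control library. Such limits cover counting error only.

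The B7-H3 gene Cd276 was slightly lower in siRNA_ANK. It measured 96.4, 87.6 and 93.4 CPM in siRNA_ANK, against 119, 117 and 116 CPM in controls. The groups did not overlap, and the log2 fold change was -0.34 ± 0.06. Vsir was near the limit of detection, with 11, 10 and 11 counts in siRNA_ANK and 14, 31 and 13 in controls. Control replicate 2 alone held more than the other controls together, and without it the log2 fold change of Vsir was -0.30 ± 0.43 in place of -0.79 ± 0.41.

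Pvr and Nectin2, whose proteins share the receptors TIGIT and CD226, stood in opposite directions. Pvr measured 43.1, 36.1 and 43.9 CPM in siRNA_ANK and 61.1, 56.7 and 57.2 CPM in controls, with a log2 fold change of -0.51 ± 0.08. Nectin2 measured 23.4, 25.6 and 21.5 CPM in siRNA_ANK and 17.6, 20.8 and 18.1 CPM in controls, with a log2 fold change of 0.32 ± 0.10. Neither gene's groups overlapped, but the lowest siRNA_ANK and the highest control value of Nectin2 were close together. The ratio of Pvr to Nectin2 per length was 3.09 ± 0.565 in siRNA_ANK and 5.46 ± 0.659 in controls (SD, n = 3 each). Nectin2 was no longer called without siRNA_ANK replicate 1 or 2 or without control replicate 1 or 3, with log2 fold changes of 0.32, 0.25, 0.27 and 0.29.

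Cd47 differed little between the groups. It measured 96.8, 94.2 and 96.2 CPM in siRNA_ANK and 90.2, 92.4 and 85.7 CPM in controls. All siRNA_ANK values were above the controls by a small margin, and the log2 fold change was 0.10 ± 0.06.

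Of the 8 genes, 7 passed the filter on low counts. In the fit over all genes, 2 of these were called higher (Cd200 and Nectin2) and 3 lower (Cd274, Cd276 and Pvr), while Cd47 and Vsir were not called. The background was 40.1% of genes called. Groups without overlap were found for 7 of the 7, and the background was 51.1%. As the group was chosen on this comparison, nothing is read from these shares. The median log2 fold change of the 7 was -0.34, and 0.01 over all genes tested.

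**Figure D1:**
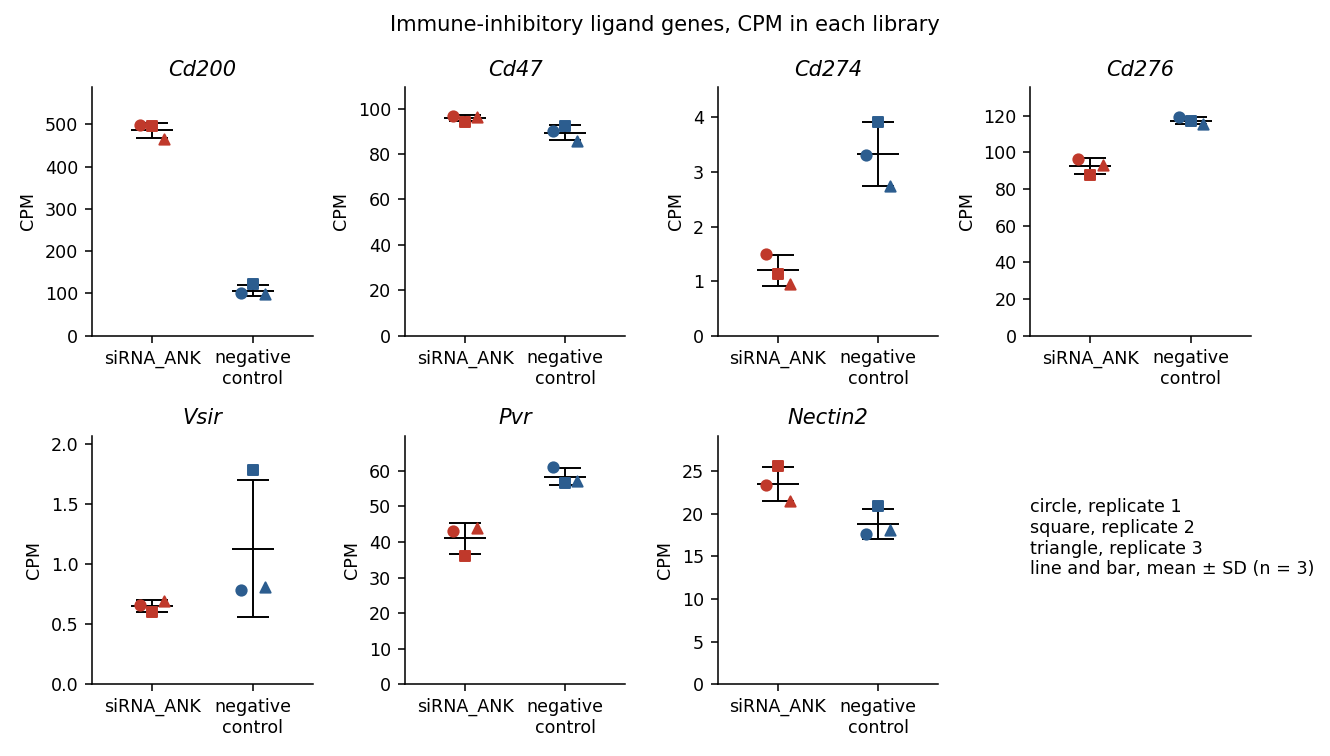
CPM of the 7 immune-inhibitory ligand genes with enough counts to be tested, in each of the 3 siRNA_ANK and 3 negative control libraries; marks are libraries, and the line and bar give the mean ± SD. Cd200 sits at 465 to 498 CPM in siRNA_ANK and at 98.9 to 121 CPM in controls, while Cd274, Cd276 and Pvr are lower in siRNA_ANK; Vsir has a single high control library.

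Levels of the genes among themselves were compared per length, as RPKM (CPM per kb of the gene length in the files). In siRNA_ANK the order was Cd200 (197 ± 7.33 RPKM), Cd276 (25.6 ± 1.24), Pvr (21.0 ± 2.22), Cd47 (16.9 ± 0.241), Nectin2 (6.88 ± 0.593), Cd274 (0.688 ± 0.161), Vsir (0.344 ± 0.0260) and Pdcd1lg2, at 0. In negative controls the order was the same, with Cd200 at 43.3 ± 5.14 RPKM, Cd276 at 32.5 ± 0.550, Pvr at 29.9 ± 1.23, Cd47 at 15.8 ± 0.602, Nectin2 at 5.51 ± 0.513, Cd274 at 1.92 ± 0.336 and Vsir at 0.595 ± 0.300. Within each group no 2 neighbours in this order had overlapping ranges. The steps from Cd276 to Pvr were small, 1.22-fold in siRNA_ANK and 1.09-fold in controls.

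Cd200 thus led in both groups, but by different margins. Per length it was 7.71 ± 0.505 times Cd276 in siRNA_ANK and 1.33 ± 0.163 times Cd276 in controls. It held 73.4% ± 1.27 of the summed level of the 8 genes in siRNA_ANK and 33.4% ± 2.42 in controls. The sum itself was 269 ± 7.29 RPKM in siRNA_ANK and 129 ± 6.29 RPKM in controls. Without Cd200 the sum was 71.4 ± 3.20 RPKM in siRNA_ANK and 86.2 ± 2.17 RPKM in controls. Among the 13016 genes tested, 225 had a higher level per length than Cd200 in siRNA_ANK and 1365 did in controls.

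**Figure D2:**
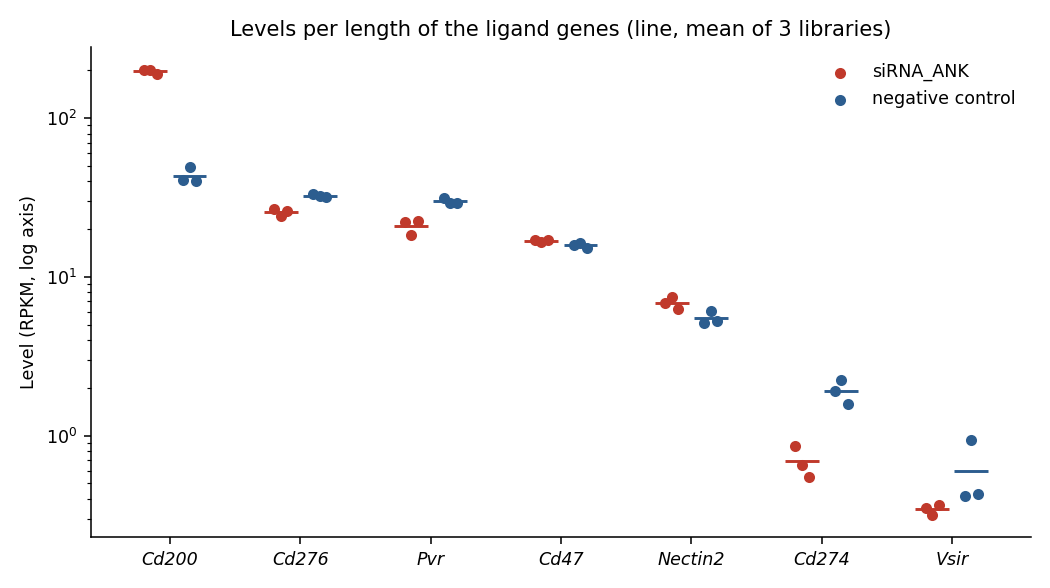
Level per length (RPKM, log axis) of the 7 ligand genes with counts, with points for the 3 siRNA_ANK and 3 negative control libraries and a line at each mean. The order of the genes is the same in both groups, with Cd200 at 197 and Cd276 at 25.6 RPKM in siRNA_ANK, and Cd200 at 43.3 and Cd276 at 32.5 RPKM in controls.

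The leukocyte receptors of these ligands were barely detected. Cd200r1 had 5, 7 and 7 counts in siRNA_ANK and 13, 5 and 8 counts in negative controls, too few to be tested. Pdcd1, Tigit, Cd226, Cd96 and Treml2, a proposed partner of B7-H3, had no count in any library. Sirpa, the receptor of CD47, was at 1.68, 1.08 and 2.28 CPM in siRNA_ANK and 2.76, 3.40 and 2.56 CPM in controls, and passed the edgeR test as lower (log2 fold change -0.80 ± 0.28, adjusted p = 0.0340). That call was lost without siRNA_ANK replicate 1 or 2 or control replicate 1 or 2 (adjusted p = 0.0834, 0.135, 0.0636 and 0.117), and DESeq2 gave an adjusted p = 0.0720. Of 13 receptors and partners matched, 5 were tested: Sirpa fell and 4 were not called by edgeR. None was called higher by edgeR or limma-voom, 1 had an unadjusted p under 0.05 in that direction, and DESeq2 called 1 higher.

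Partners of the ligands that tissue cells make had enough counts for firmer values. Rgmb, whose protein binds PD-L2, was picked with its values in view. It measured 30.7, 33.1 and 30.3 CPM in siRNA_ANK and 30.6, 32.6 and 36.2 CPM in controls (log2 fold change -0.08 ± 0.08). Nectin3, an adhesion partner of both Pvr and Nectin2, measured 87.8, 95.6 and 91.4 CPM in siRNA_ANK and 96.9, 91.8 and 93.9 CPM in controls, with overlapping groups (log2 fold change -0.04 ± 0.06). Thbs1, which encodes the CD47-binding matrix protein thrombospondin, measured 3316, 3429 and 2471 CPM in siRNA_ANK and 2446, 2593 and 2581 CPM in controls. Its siRNA_ANK replicate 3 lay among the controls, and the log2 fold change of 0.27 ± 0.12 did not pass the edgeR test (adjusted p = 0.0971). Without that library 1 partner was called higher in place of 0.

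Other genes of these pathways were taken from 6 lists, with 90 distinct genes, 86 matched and 63 tested. Of the 63, 24 rose and 16 fell (63.5% called, against 40.1% of all genes), and the median log2 fold change was 0.14, against 0.01 over all genes. Over all genes tested, 19.9% were called higher and 20.2% lower. The lists were chosen with earlier results of these data known, so nothing is read from these shares or from the counts per list. Sirpa, Thbs1, Nectin3 and Cd80 each stand in 2 of the lists.

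Among other checkpoint and costimulatory ligands, 4 of 10 tested genes rose and 3 fell (median log2 fold change 0.12). Tnfsf18, the ligand of the costimulatory receptor GITR, measured 64.3, 70.8 and 57.0 CPM in siRNA_ANK and 5.46, 5.24 and 4.19 CPM in controls (log2 fold change 3.68 ± 0.11, edgeR adjusted p = 2.29e-11). Icoslg, the ligand of the T cell costimulator ICOS, measured 8.21, 8.45 and 6.90 CPM in siRNA_ANK and 3.09, 3.57 and 2.56 CPM in controls (log2 fold change 1.35 ± 0.18, edgeR adjusted p = 2.91e-05). Both rose without overlap between the groups. Vtcn1, the gene of the inhibitory ligand B7-H4, and Lgals9, the gene of galectin-9, were chosen after their values were seen. Both were low and rose, to 1.94 ± 0.282 and 1.94 ± 0.249 CPM in siRNA_ANK, against 0.678 ± 0.462 and 0.692 ± 0.260 CPM in controls (edgeR adjusted p = 0.00691 and 0.00279). The galectin genes Lgals3 and Lgals1, whose secreted products bind glycans on T cells, fell. Lgals3 measured 81.9, 80.7 and 78.2 CPM in siRNA_ANK and 250, 237 and 267 CPM in controls (log2 fold change -1.65 ± 0.06, edgeR adjusted p = 9.51e-11). Lgals1 fell 1.41-fold. Cd86, which like Cd80 encodes a ligand of CD28 and CTLA-4, had no count, and Cd80 did not pass the test (log2 fold change 0.19 ± 0.27).

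Of 5 tested nectins and nectin-like adhesion genes, 1 rose and 2 fell (median log2 fold change -0.04). Cadm4, which encodes a nectin-like adhesion protein, measured 35.1, 31.7 and 44.4 CPM in siRNA_ANK and 193, 199 and 194 CPM in controls (log2 fold change -2.40 ± 0.10, edgeR adjusted p = 1.75e-08). Its relative Cadm1 rose 2.26-fold, from a low level, and Afdn, the gene of the nectin-binding scaffold afadin, fell 1.18-fold. Without siRNA_ANK replicate 3, 2 genes of the list were called higher.

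Of 16 genes for CD47 partners and engulfment, 4 rose and 4 fell (median log2 fold change -0.03). Calr encodes calreticulin, a chaperone that also acts as an engulfment signal on the cell surface. It measured 1279, 1169 and 1655 CPM in siRNA_ANK and 3638, 3056 and 3617 CPM in controls (log2 fold change -1.33 ± 0.14, edgeR adjusted p = 0.000415). Axl, a receptor in the uptake of dying cells, fell 1.32-fold, and the thrombospondin genes Thbs2 and Thbs3 rose 1.68-fold and 1.47-fold. Gas6, the ligand of AXL, was picked with its values in view and measured 831, 909 and 715 CPM in siRNA_ANK and 150, 213 and 135 CPM in controls (edgeR adjusted p = 0.000486). Qpctl, whose enzyme modifies the SIRP-alpha binding site of CD47, was also picked in this way and fell 1.61-fold (edgeR adjusted p = 0.000556).

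Of 19 regulators of Cd274, 8 rose and 4 fell (median log2 fold change 0.14). The list mixes genes that raise with genes that lower Cd274 or its protein. These counts therefore cannot be set against the lower level of Cd274. Jak1, a kinase of interferon signalling, rose to 284 ± 5.07 CPM in siRNA_ANK, against 231 ± 1.25 CPM in controls (n = 3, edgeR adjusted p = 0.000290). Socs3, a feedback inhibitor of cytokine signalling, rose 1.85-fold, and Myc, which can drive Cd274 transcription, rose 1.23-fold. Spop, an adaptor of PD-L1 ubiquitination in human cells, fell 1.26-fold.

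Of 12 genes listed as secreted and enzymatic immune suppressors, 7 rose and 3 fell (median log2 fold change 0.71). The 7 are not all plain suppressors, as they include Il6, best known as a pro-inflammatory cytokine gene, and the cytokine gene Lif. Il6 and Lif, picked with their values in view, had log2 fold changes of 0.84 ± 0.15 and 0.76 ± 0.22 (edgeR adjusted p = 0.000440 and 0.0320). Hmox1, picked in the same way, was among those that fell (log2 fold change -0.50 ± 0.15, edgeR adjusted p = 0.0407). When a library was left out, 5 to 7 genes of this list were called higher and 2 to 3 lower. Tgfb1 fell to 116 ± 5.93 CPM in siRNA_ANK, against 173 ± 8.98 CPM in controls (n = 3, edgeR adjusted p = 3.72e-06). The other TGF-beta genes, picked with their values in view, rose: Tgfb2 to 459 ± 49.7 CPM in siRNA_ANK, against 291 ± 26.5 CPM in controls (edgeR adjusted p = 8.02e-05), and Tgfb3 to 761 ± 165 CPM in siRNA_ANK, against 357 ± 81.0 CPM in controls (edgeR adjusted p = 0.0228). The cyclooxygenase gene Ptgs2 fell 1.69-fold. Arg1, which encodes arginase, rose to 9.39 ± 1.22 CPM in siRNA_ANK, against 3.47 ± 0.836 CPM in controls, and Tnfaip6, the gene of an anti-inflammatory hyaluronan-binding protein, rose 1.85-fold. Il10 and Ido1 had no count in any library.

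**Figure D3:**
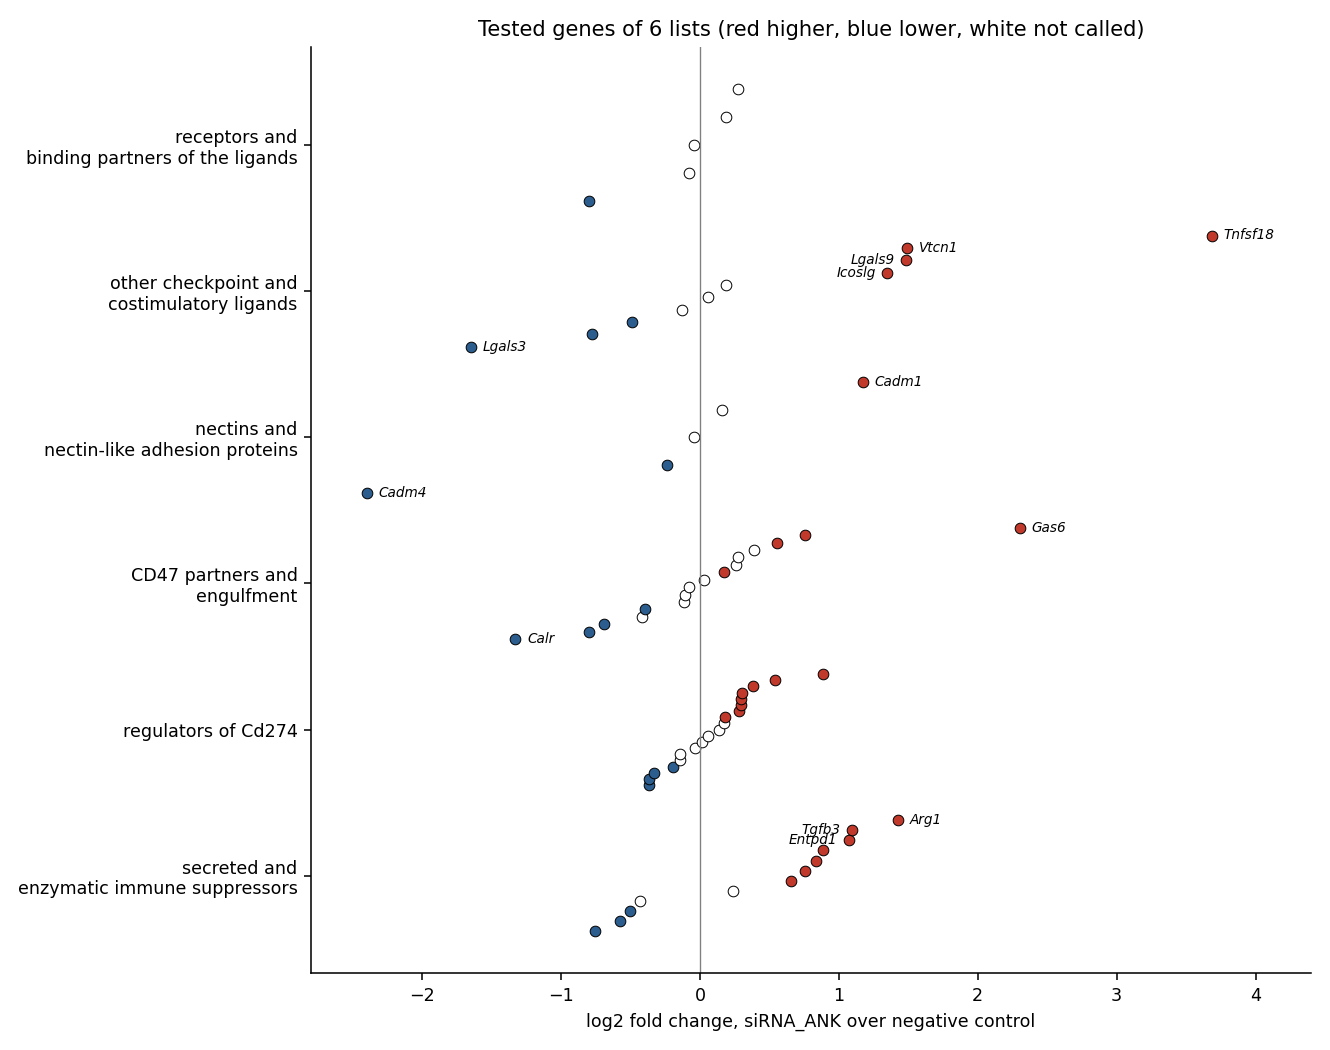
Log2 fold change of siRNA_ANK over negative control for the tested genes of the 6 lists, 1 point per gene, in red where called higher and blue where called lower by edgeR at an adjusted p under 0.05. Each list except that of receptors and partners holds called genes on both sides of 0, from Cadm4 at -2.40 to Tnfsf18 at 3.68.

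The genes whose values were most like those of Cd200 were sought among 10355 genes with a symbol and a mean of at least 2 CPM. Likeness was the Euclidean distance between log2 CPM values centred on each gene's mean, over the 6 libraries. The nearest were Vgll3, a transcription cofactor gene (distance 0.21), Abcb1b, an efflux transporter gene (0.23), Ca9, the gene of a carbonic anhydrase (0.25), Tmem158 (0.26), Slco5a1 (0.26) and the gene that the files describe as osteoglycin (0.27). Vgll3, on chromosome 11 like Cd200, measured 81.8, 90.8 and 71.7 CPM in siRNA_ANK and 17.3, 20.7 and 15.5 CPM in controls. In these genes, as in Cd200, control replicate 2 was the highest control. As they were picked for likeness over the same 6 libraries, this shared pattern follows largely from the choice. Abcb1b stands on 2 overlapping rows of the files, which leaves its count uncertain. The other tested ligand genes were much farther from Cd200, between 2.30 (Nectin2) and 4.50 (Cd274).

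**Figure D4:**
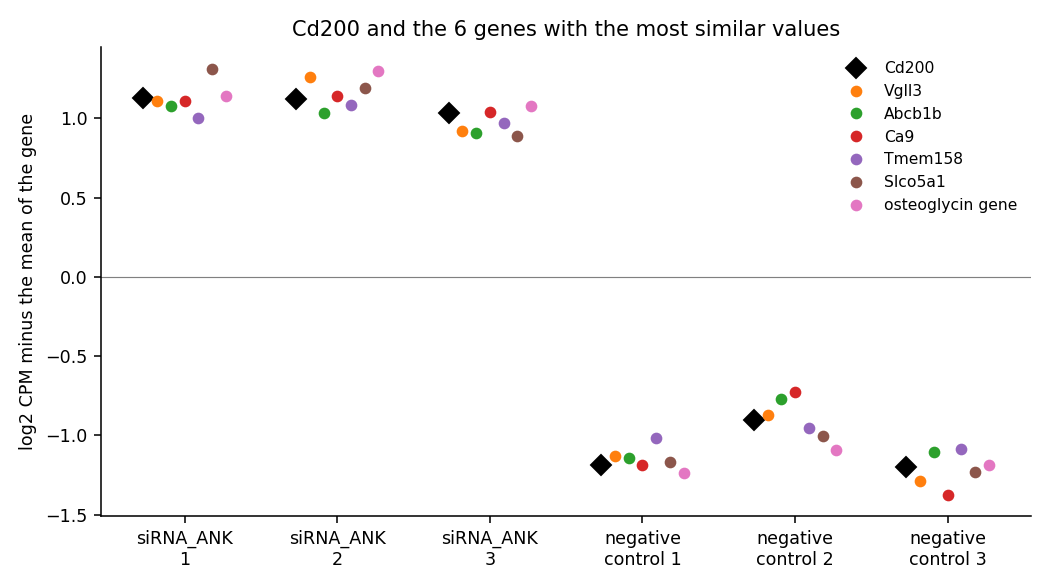
Log2 CPM minus the gene's own mean over the 6 libraries, for Cd200 (diamonds) and the 6 genes nearest to it (circles). All 7 genes lie above 0 in each siRNA_ANK library and below 0 in each negative control, and control replicate 2 is the highest control for each. The 6 genes were picked for this likeness.

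Genes next to Cd200 on chromosome 11 had smaller log2 fold changes than Cd200. Of the 4 nearest tested genes with a symbol on each side, 4 of 8 rose and 4 were not called (19.9% of all genes tested were called higher), with log2 fold changes from -0.31 to 0.63. The nearest, Atg3, an autophagy gene 123 kb away, rose 1.22-fold (edgeR adjusted p = 0.00251). Phldb2, 332 kb away on the other side, had 399 ± 79.8 CPM in siRNA_ANK and 257 ± 8.0 CPM in controls (edgeR adjusted p = 0.00945). The list gene Nectin3 is also in this stretch, 948 kb from Cd200. Around Cd274 and Pdcd1lg2, 2 of 8 neighbours rose and 6 were not called (against the same 19.9%), with log2 fold changes from -0.14 (Jak2, the interferon signalling kinase) to 0.44 (Ak3).

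**Figure D5:**
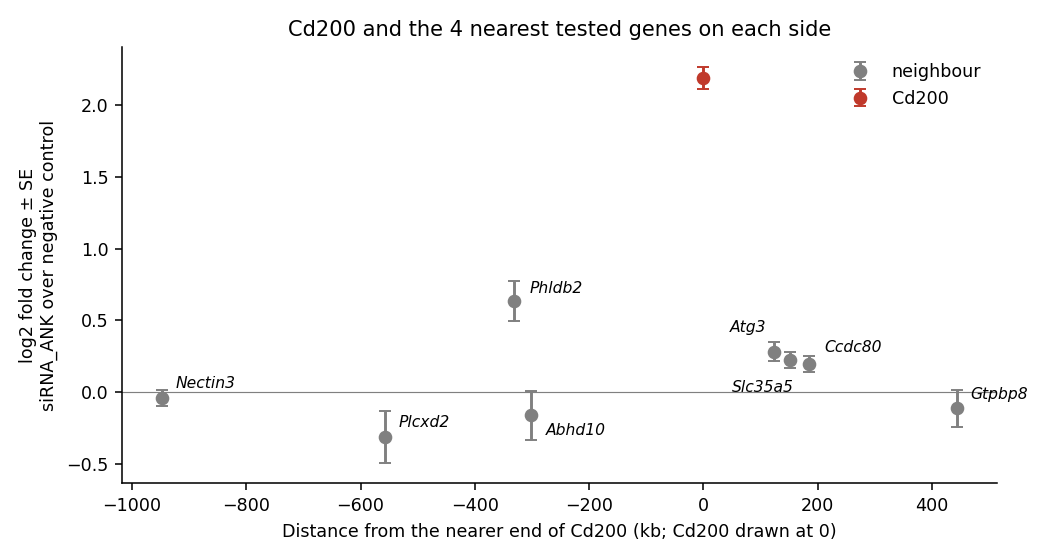
Log2 fold change ± SE of siRNA_ANK over negative control for Cd200, drawn at 0 kb, and for the 4 nearest tested genes on each side, by their distance in kb. Cd200 is at 2.19 and its neighbours lie between -0.31 and 0.63.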

How the data were processed

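Total RNA of the smooth muscle cells was sequenced, with 1 file per library. The authors deposited unnormalized whole-number counts for each gene. The submitters' processing notes name featureCounts 1.5.0-p3, DESeq2 and the build mRatBN7.2. Neither aligner, strand setting nor read filters are stated there, and without strand the reads of a gene and an antisense partner stay mixed. Gene lengths and coordinates are other values of the same deposited files.

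Genes were kept by filterByExpr (minimum count 10, minimum total 15), which left 13016 of 30945. The 385 loci without a gene name or without an Ensembl identifier (0.306% to 0.339% of counts) stayed in the library totals and the fit. edgeR 4.0.16 in R 4.3.3 was used with TMM factors (0.979 to 1.02), no covariate, a robust two-sided quasi-likelihood test and Benjamini-Hochberg adjustment over all genes tested. The SE is the log2 fold change over the square root of F. CPM and RPKM were computed from the counts. The edgeR fit was tried on simulated counts with known fold changes, and the other steps were not.

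The ligand genes, lists and alternatives were chosen with earlier results of these data known. Named genes are the ligands, Ankh, 6 receptors, up to 4 called genes per list by smallest adjusted p, the 6 genes nearest to Cd200, and 4 neighbours on each side. Thbs1, Cd80, Cd86, Treml2, Il10, Ido1, the markers named singly and genes said to be picked with values in view lie outside this rule and were chosen after their values were seen. In each group, replicates differed by more than sampling noise (chi-square per degree of freedom 2.83 to 12.3). Exact permutation of 3 against 3 libraries cannot go below p = 0.1 and was not used. Alternatives were DESeq2 1.42.0, limma-voom (limma 3.58.1), other scalings, filters, a replicate block and leaving out libraries.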

Additional observations from a re-analysis of the deposited data

How the results depend on the processing

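The log2 fold change of Cd200 ran from 2.13 to 2.32 over 14 alternatives. The upper end came from leaving out both libraries nearest to the other group, which had the least extreme Cd200 values. The directions of the 7 tested ligand genes held in every alternative that gave a value, but the alternatives reuse the same libraries. For Cd47 and Vsir, which were not called, the direction is not settled. Cd47 came to 0.07 ± 0.07 without control replicate 3, and Vsir to -0.30 ± 0.43 without control replicate 2. The filter at a mean of 5 CPM removed Cd274 and Vsir. Ligands called higher numbered 1 to 2 and ligands called lower 3 when a library was left out. Over all genes, 1991 to 2874 were called higher and 2062 to 2976 lower when a library was left out. The order of the ligand levels was the same by TPM. RPKM and TPM differ only by a factor per library, so the order within a library could not change.

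Among receptors and partners, the count called higher was 1 in place of 0 with DESeq2, with the replicate block and without both libraries nearest to the other group, and 0 to 1 when a library was left out. The count called lower was 0 with DESeq2 and with the 5 CPM filter, 2 with no filter beyond 1 count, and 0 to 1 when a library was left out, in place of 1. With the 5 CPM filter, 2 in place of 4 other checkpoint ligands were called higher, as fewer were tested. Nectins called higher were 2 in place of 1 without both libraries nearest to the other group, and 1 to 2 when a library was left out. The filters change the genes tested. DESeq2 was run with no filter beforehand (8 in place of 5 receptors and partners), so its counts mix the tool with the gene set. The cause of the other moves was not tested.

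The replicate number as a block gave 2579 genes higher and 2631 lower, against 2594 and 2629 without it, and 2.19 for Cd200. Deviations of same-numbered libraries correlated at -0.03, 0.06 and 0.04 across genes, so the numbers were not taken as a pairing. Depth limits Cd274 and Vsir (10 to 68 counts a library) and the leukocyte receptors.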

Other observations

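A leukocyte surface gene outside the report's rule was chosen after its values were seen. Cd48, a ligand known from blood cells, measured 39.3, 37.8 and 38.9 CPM in siRNA_ANK libraries and 37.7, 37.4 and 36.4 CPM in negative controls, while the pan-leukocyte gene Ptprc had no count in any library. Its log2 fold change was 0.06 ± 0.07 and did not pass the edgeR test (adjusted p = 0.544). Cd14, a receptor for bacterial lipopolysaccharide best known from monocytes, was also chosen in this way. It measured 11.3, 10.5 and 14.4 CPM in siRNA_ANK and 24.8, 23.9 and 26.9 CPM in controls, without overlap (log2 fold change -1.06 ± 0.11, edgeR adjusted p = 5.03e-06).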
